A study of Mus musculus with 24 samples.

Results

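The genes described here encode the subunits, activators, assembly factors and inhibitor of the proteasome. They were taken by name, as all genes whose array symbol starts with Psm, 1 letter from a to g and a number. Psmb2, which lies close to Foxo6, and genes named or annotated as pseudogenes were left out. The rule gave 49 of the 19938 genes measured, each read from 1 array probe (a transcript cluster). Of these, 47 belong to the proteasome, and 2 match by name alone: Psmc3ip, which encodes a partner of meiotic recombinases, and Psme3ip1, which encodes a protein that binds the product of Psme3. The rule itself uses names and no measured value.

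Hippocampal RNA was taken from males, 8 to 9 weeks old, of a mixed C57BL/6J-129sv background. Mice were wild type (WT, FoxO6 +/+) or FoxO6 mutant (FoxO6 -/-, labelled null), and all carried the same mixed background. Basal mice were housed alone for at least 3 days and then taken. Mice of the learning groups were handled daily, met an empty arena for 10 min, explored a pair of identical new objects in it for 10 min after a further 24 h, and were taken 60 min later. Each of the 4 groups (WT basal, mutant basal, WT learning, mutant learning) had 6 arrays. The sources used here do not say how the null allele was made or whether animals were pooled. The labels call the arrays biological replicates without saying that each is a separate animal, so p values measure the spread between these arrays, whose number limits the precision.

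The proteasome degrades proteins that carry chains of ubiquitin. Its barrel-shaped 20S core holds outer rings of alpha subunits and inner rings of beta subunits, 3 of which cut peptide bonds, and the 19S cap binds ubiquitin chains, removes them, unfolds the protein and feeds it into the core. In neurons, protein breakdown by the proteasome is needed for lasting forms of synaptic plasticity and for memory. The FoxO transcription factors are linked to it in other cells: FOXO4 raises PSMD11 in human embryonic stem cells, and FoxO3 drives ubiquitin ligase genes in wasting mouse muscle.

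Foxo6 itself read 6.78 to 7.30 (log2) in WT basal arrays and 6.18 to 6.59 in mutant basal arrays. After learning it read 6.62 to 7.04 in WT and 5.98 to 6.38 in the mutant, so genotypes did not overlap in either state. Pairs of arrays of a group correlated across genes at 0.991 to 0.997, and the array medians lay between 6.16 and 6.30. All 9 measured markers of hippocampal neurons had mean values above these medians (8.62 for C1ql2 to 11.9 for Camk2a). Learning and basal groups differed in housing, handling and transfer as well as in object exploration, and these cannot be told apart from each other or from any separate processing of the arrays. In whole tissue, fewer cells of a type and less RNA per cell cannot be told apart.

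Promoter sequences are shown for 5 genes on which the results turn: the catalytic subunits Psmb5 and Psmb6, Psmd14 and Psmd10, which rose most in WT, and Psmc5, which fell. The sequences are from RefSeq (mouse assembly GRCm38.p6) and are written 5′ to 3′ on the strand of the gene. Each runs from 250 bases before to 50 bases after a start position, which is the start of the gene for all but Psmb6. The Psmb6 gene begins at chr11:70525324, upstream of the start position used. Capitals mark TGACNNNGC, the core of the element bound by Nfe2l1 and Nfe2l2, and CCAAT, the box bound by NF-Y, each searched on both strands (ATTGG is CCAAT on the other strand). Psmb5 lies on the minus strand at chr14:54617946-54618245, Psmb6 on the plus strand at chr11:70525107-70525406 and Psmc5 on the plus strand at chr11:106255935-106256234. Psmd14 lies on the plus strand at chr2:61711444-61711743 and Psmd10 on the minus strand at chrX:140956662-140956961.
Psmb5: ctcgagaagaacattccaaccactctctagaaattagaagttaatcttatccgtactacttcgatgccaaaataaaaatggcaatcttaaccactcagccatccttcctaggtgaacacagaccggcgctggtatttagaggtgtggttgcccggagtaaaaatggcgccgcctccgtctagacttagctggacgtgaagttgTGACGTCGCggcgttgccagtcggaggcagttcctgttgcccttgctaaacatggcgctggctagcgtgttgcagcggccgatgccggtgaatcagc
Psmb6: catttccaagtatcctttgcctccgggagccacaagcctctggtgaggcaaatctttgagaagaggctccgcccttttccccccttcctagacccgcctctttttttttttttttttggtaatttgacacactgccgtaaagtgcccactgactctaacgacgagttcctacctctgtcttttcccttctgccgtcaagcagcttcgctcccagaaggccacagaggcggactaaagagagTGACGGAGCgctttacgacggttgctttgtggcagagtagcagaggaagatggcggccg
Psmd14: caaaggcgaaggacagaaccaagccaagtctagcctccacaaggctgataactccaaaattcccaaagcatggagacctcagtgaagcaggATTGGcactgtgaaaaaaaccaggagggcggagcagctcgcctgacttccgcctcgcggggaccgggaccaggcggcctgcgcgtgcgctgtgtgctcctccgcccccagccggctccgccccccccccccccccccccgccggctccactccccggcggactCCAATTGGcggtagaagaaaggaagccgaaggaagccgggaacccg
Psmd10: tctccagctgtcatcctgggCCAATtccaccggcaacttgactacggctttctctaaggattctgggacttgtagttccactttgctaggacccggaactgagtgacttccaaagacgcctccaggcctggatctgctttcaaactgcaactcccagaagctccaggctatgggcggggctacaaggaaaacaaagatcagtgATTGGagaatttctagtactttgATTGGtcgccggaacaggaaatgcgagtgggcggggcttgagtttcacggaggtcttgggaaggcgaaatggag
Psmc5: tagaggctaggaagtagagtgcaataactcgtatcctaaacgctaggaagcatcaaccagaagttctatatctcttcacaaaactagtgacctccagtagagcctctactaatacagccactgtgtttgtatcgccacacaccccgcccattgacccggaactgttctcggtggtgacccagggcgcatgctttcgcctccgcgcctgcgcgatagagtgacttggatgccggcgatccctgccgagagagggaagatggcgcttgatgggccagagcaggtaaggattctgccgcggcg
Psmb5 and Psmb6 hold 1 match to TGACNNNGC each, at bases -47 to -39 and -9 to -1 from the start position used. The match in Psmb6 lies inside the annotated gene. Psmd14 and Psmd10 hold 3 matches to CCAAT each, of which a pair overlaps in Psmd14. Psmc5 holds none of the motifs searched.

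The promoter table held 42 of the 49 genes. TGACNNNGC lay in 6 of 42 (14.3%), against 14.0% of all 27025 genes in the table, and CCAAT in 16 of 42 (38.1% against 41.1%). Counted per promoter of the same length, TGACNNNGC lay in 13.0% of the 46 promoters of these genes and in 12.4% of all 32851, and CCAAT in 34.8% and 37.4%. The 6 genes with TGACNNNGC were Psmb5, Psmb6, Psmc6, Psmd9, Psmd12 and Psme4. The FoxO motif GTAAACA was found in 0 of 42 (0 of 46 promoters) and in 3.65% of all promoters. The interferon response motif was found in 10.9% of these promoters and 3.44% of all, namely in Psmb3, Psmd4, Psmd9, Psme1 and Psmg4. A match describes letters in the window and shows no binding, and a missing match says only that these letters are not in it.

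After the learning task, most genes of the core, the lid of the cap and its assembly chaperones rose, and they did so in both genotypes. In WT mice 24 of the 49 genes rose (49%), where 25.1% of all genes were called higher, and 4 fell (8.16%), where 18.2% of all genes were called lower. In mutant mice 27 rose (55.1%, against 22.6% of all genes) and 5 fell (10.2%, against 18.7%). Calls are by limma with p adjusted over all genes and a threshold of 0.05. The median difference, learning minus basal on the log2 scale, was 0.13 in WT and 0.16 in the mutant, beside 0.03 in each genotype over all genes. Differences above 0.5 were found in 12.2% of these genes in WT (3.59% of all genes) and in 14.3% in the mutant (3.05% of all). As whole comparisons changed so many genes, these shares describe the set and do not single it out. The set is also of high level: 42 of the 49 genes (85.7%) lay above the median level of all genes. The top 10% by level held 20 of them (40.8%). All genes in that top 10% had a median difference of 0.06 in WT and 0.03 in the mutant. Shares called among genes of like level are not given here.

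**Figure D1:**
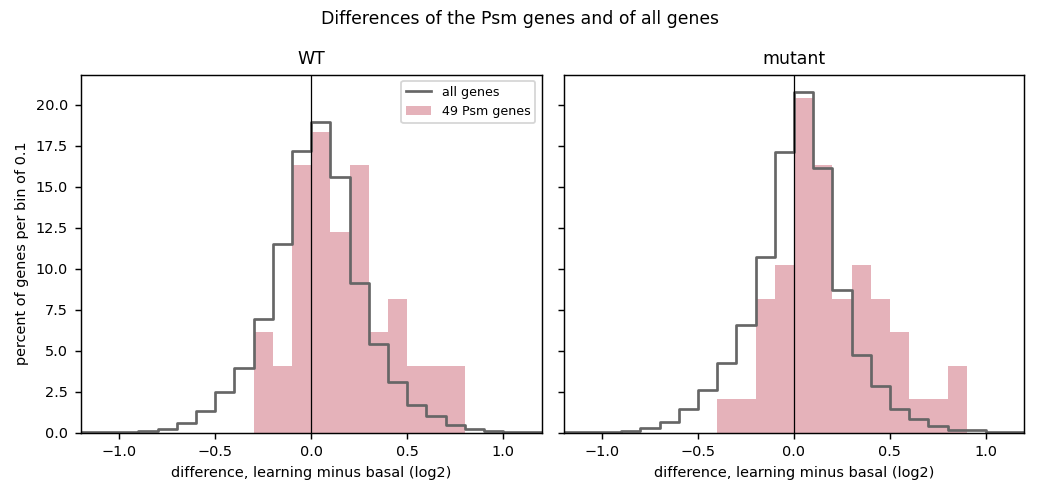
Share of genes in bins of 0.1 of the difference learning minus basal (log2), for WT at left and the mutant at right. Bars are the 49 Psm genes and the line all 19938 genes; the axis ends at 1.2 on either side, beyond which a few of all genes lie. The bars reach further right than left, with medians of 0.13 and 0.16 against 0.03 for all genes.

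The WT and mutant comparisons share no arrays. They called 23 genes higher in both, 3 lower in both and 0 in opposite directions, while 2 were called in WT alone, 6 in the mutant alone and 15 in neither. As a share of all genes, 19% were called higher in both and 15.7% lower in both. Of the 19938 genes, 3 were called in opposite directions, 1723 in WT alone, 1318 in the mutant alone and 9984 in neither. Without overlap of single arrays, 17 genes were higher in WT (34.7%, against 13.8% of all genes) and 19 in the mutant (38.8%, against 10.9%). In the other direction 3 did not overlap in each genotype (6.12%), against 11.4% and 11.8% of all genes. A call in 1 genotype alone does not show a difference between them: the interaction, tested below, called 0 of these genes.

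**Figure D2:**
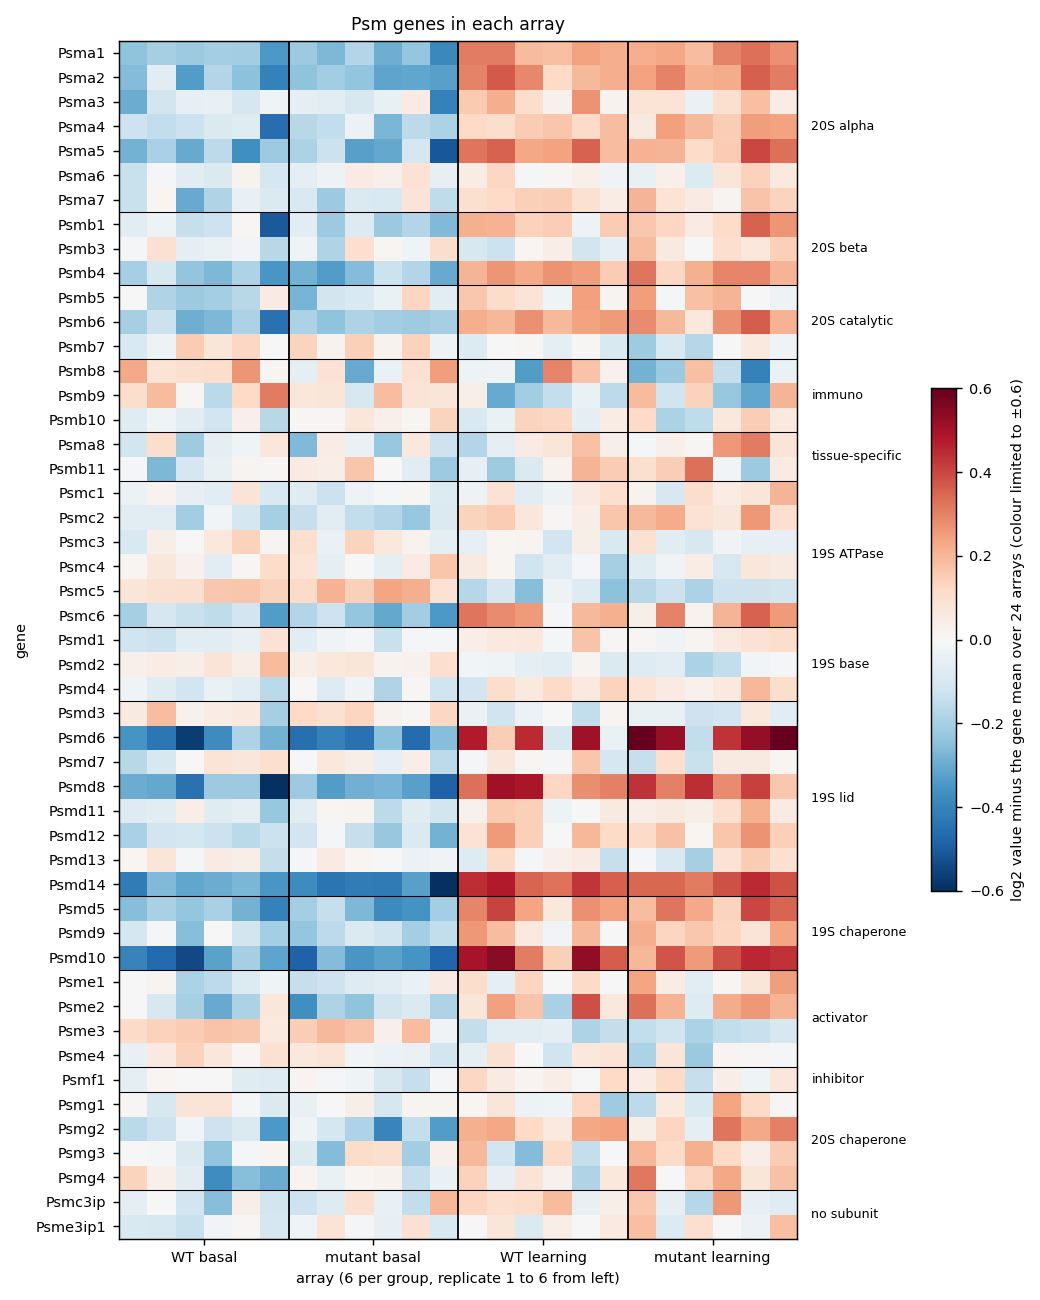
Each row is a Psm gene, grouped by role, and each column 1 of 24 arrays; colour is the log2 value minus the mean of the gene over all arrays. The basal arrays (left) are mostly blue and the learning arrays (right) mostly red for the alpha ring except Psma6. The same holds for Psmb4, Psmb6, Psmd14, Psmd8, Psmd10 and Psmd5, with no such step between genotypes.

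In the alpha ring, which closes the ends of the core and carries its gate, 6 of 7 genes rose in each genotype. Psma1 read 9.35 to 9.49 in WT basal arrays (median 9.48) and 9.87 to 10.00 after learning (median 9.92), a difference of 0.48 (SE 0.0387, adjusted p = 3.04e-11). In the mutant it read 9.31 to 9.52 (median 9.45) and 9.88 to 10.03 (median 9.95), a difference of 0.52 (adjusted p = 5.25e-12). Every learning array lay above every basal array in both genotypes. Psma2 read 9.26 to 9.60 (median 9.41) in WT basal arrays and 9.78 to 10.03 (median 9.92) after learning, against 9.34 to 9.45 (median 9.39) and 9.88 to 10.02 (median 9.93) in the mutant. Its rise was 0.50 (1.41-fold, adjusted p = 8.75e-10) in WT and 0.55 (1.46-fold, adjusted p = 1.19e-10) in the mutant.

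Psma5 read 8.50 to 8.70 (median 8.61) and 9.05 to 9.22 (median 9.14) in WT, and 8.35 to 8.75 (median 8.61) and 8.97 to 9.26 (median 9.07) in the mutant, basal first. It rose by 0.54 (adjusted p = 1.2e-08) and 0.50 (adjusted p = 4.76e-08), and for both genes no learning array reached down to a basal one. Psma4, Psma3 and Psma7 rose less, by 0.31, 0.24 and 0.23 in WT and by 0.35, 0.18 and 0.20 in the mutant, and the groups overlapped for Psma3 and Psma7 in the mutant. The exception was Psma6, at 0.09 in WT (adjusted p = 0.0566) and 0.02 in the mutant (adjusted p = 0.674).

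Symbols with several probes leave some of these values uncertain, since near-identical copies can share signal. The positions of the probes were not at hand, so the probe used, that of highest mean, may itself read a copy. Psma3 was measured by 3 probes, and the differences of the other two were 0.23 and 0.22 in WT and 0.15 and 0.18 in the mutant. In a fit over every probe of the table the one at 0.15 had an adjusted p of 0.0687. A second probe of Psma5 was higher by 0.39 (WT) and 0.30 (mutant), with adjusted p of 0.00153 and 0.013.

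Among the beta subunits that build the core without cutting, Psmb1 and Psmb4 rose and Psmb3 was not called. Psmb4 read 9.32 to 9.57 (median 9.45) in WT basal arrays and 9.82 to 9.94 (median 9.91) after learning, a difference of 0.45 (adjusted p = 8.16e-10). In the mutant it rose by 0.49 (adjusted p = 1.47e-10), again without overlap. Psmb1 read 8.74 to 9.25 (median 9.15) and 9.21 to 9.46 (median 9.39) in WT, and 8.98 to 9.18 (median 9.05) and 9.29 to 9.60 (median 9.39) in the mutant. It rose by 0.28 (adjusted p = 0.000765), with overlap and with 1 WT basal array far below the rest, and by 0.35 (adjusted p = 6.02e-05) in the mutant, without overlap. For Psmb3 the differences were -0.02 and 0.09 (adjusted p = 0.736 and 0.115), and its second probe by 0.01 and -0.05. Psmb2, the left-out gene of the same ring, rose by 0.75 in WT and 0.76 in the mutant (adjusted p = 4.77e-15 and 2.89e-15), without overlap.

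The 3 catalytic subunits did not move together. Psmb6, which holds the caspase-like site, read 9.51 to 9.83 (median 9.72) in WT basal arrays and 10.15 to 10.23 (median 10.18) after learning. In the mutant it read 9.71 to 9.77 (median 9.75) and 10.02 to 10.32 (median 10.20). Learning arrays lay above all basal arrays in both genotypes, and the rise was 0.48 in WT (1.40-fold, adjusted p = 4.05e-10) and 0.44 in the mutant (1.36-fold, adjusted p = 2.67e-09).

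Psmb5, which holds the chymotrypsin-like site, read 9.33 to 9.60 (median 9.37) in WT basal arrays and 9.52 to 9.79 (median 9.64) after learning. Mutant arrays read 9.27 to 9.67 (median 9.47) and 9.51 to 9.80 (median 9.63). The rise was 0.22 (adjusted p = 0.0053) in the former and 0.17 (adjusted p = 0.0253) in the latter. Groups overlapped in both genotypes, and the call in the mutant ended under a second quantile normalization (adjusted p = 0.0517) and without mutant basal array 1 or mutant learning array 1, 3 or 4 (up to 0.0895). Psmb7, which holds the trypsin-like site, read 10.56 to 10.80 (median 10.69) in WT basal arrays and 10.56 to 10.66 (median 10.63) after learning, a difference of -0.07 (adjusted p = 0.223). Mutant arrays read 10.62 to 10.79 (median 10.73) and 10.44 to 10.71 (median 10.59), and there it fell by 0.14 (adjusted p = 0.0124), with overlap. Psmb5 and Psmb6 are the catalytic genes whose promoters, printed above, hold TGACNNNGC, and Psmb7 was not in the promoter table. A link between this motif and the learning differences was not tested.

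**Figure D3:**
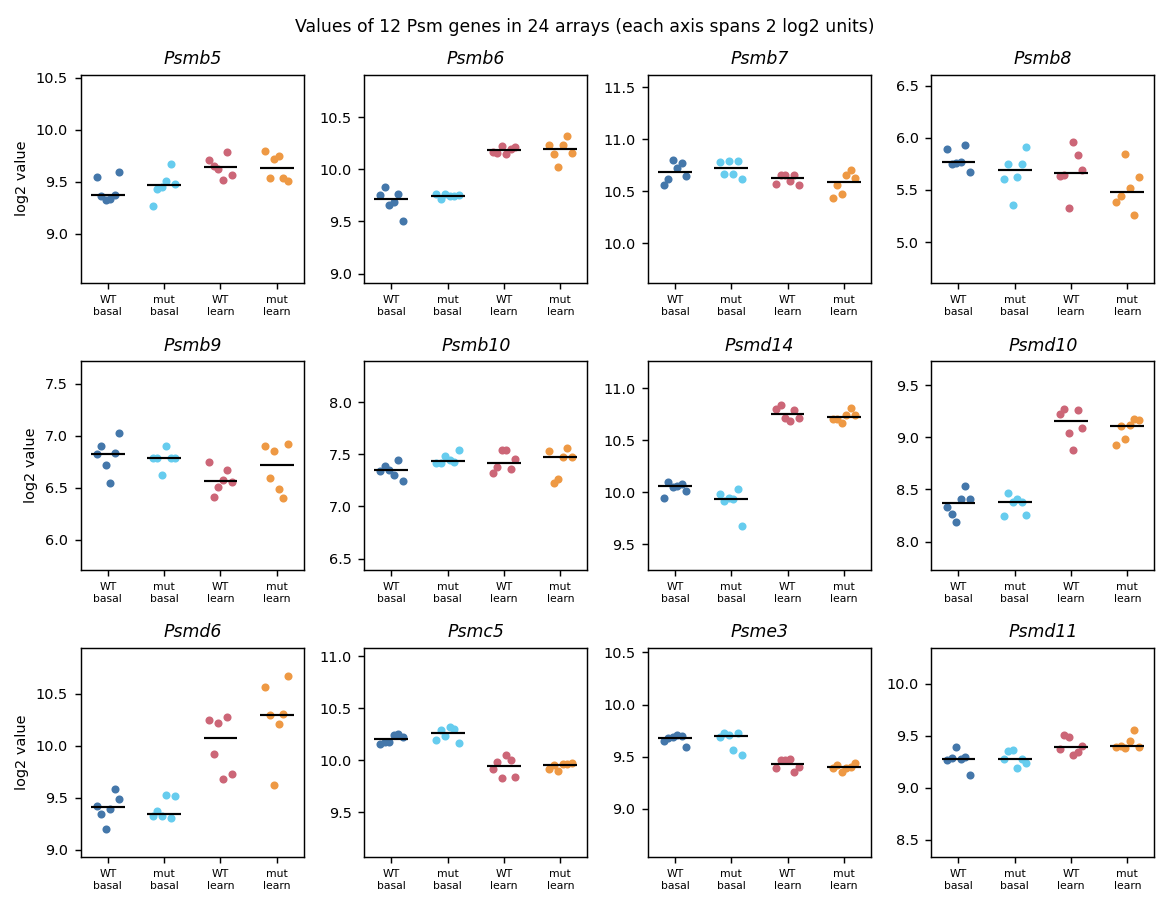
The log2 value of each array for 12 genes in the 4 groups, with the group median as a bar; every vertical axis spans 2 log2 units, and levels of different genes are not comparable. Psmb6, Psmd14 and Psmd10 show learning arrays wholly above basal arrays, Psmc5 and Psme3 wholly below, and Psmb7 to Psmb10 overlap between states.

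The immunoproteasome subunits, which take the place of the 3 catalytic subunits in immune cells and under interferon, did not rise. Psmb9, which replaces Psmb6, read 6.55 to 7.02 (median 6.83) in WT basal arrays and 6.41 to 6.75 (median 6.56) after learning. The fall was 0.23 (adjusted p = 0.0331), and its call ended in 7 of 12 runs that left out 1 array (WT basal 1, 2, 5 or 6 and WT learning 2, 3 or 6, up to 0.0939) and without WT basal arrays 4, 5 and 6 together (0.0754). Mutant arrays read 6.62 to 6.90 (median 6.79) and 6.40 to 6.92 (median 6.72), a difference of -0.08 (adjusted p = 0.479).

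Psmb8, which replaces Psmb5, read 5.67 to 5.93 (median 5.76) and 5.33 to 5.96 (median 5.67) in WT, and 5.36 to 5.91 (median 5.69) and 5.26 to 5.84 (median 5.48) in the mutant, basal first. Its differences were -0.11 (adjusted p = 0.38) and -0.16 (adjusted p = 0.218). Psmb10, which replaces Psmb7, read 7.25 to 7.45 (median 7.35) and 7.32 to 7.55 (median 7.42) in WT, and 7.42 to 7.55 (median 7.43) and 7.22 to 7.56 (median 7.47) in the mutant. The states overlapped for both genes in both genotypes, and the Psmb10 differences were 0.09 and -0.03 (adjusted p = 0.254 and 0.689). Every Psmb8 value lay below the medians of the arrays, and these values carry no detection call.

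Beside them stand the genes of antigen processing that interferon also induces, of which 8 of 12 listed were measured. Over all genes, 18.2% were called lower in WT and 18.7% in the mutant. In WT 0 of the 8 rose and 3 fell: Tapbp, a peptide loading chaperone (-0.31), the transcription factor Irf1 (-0.48) and the peptide transporter Tap1 (-0.23, adjusted p = 0.011). In the mutant 0 rose and 3 fell: Tapbp (-0.34), Irf1 (-0.34) and the regulator Nlrc5 (-0.28, adjusted p = 0.0354). Microglial markers moved in both directions, with 4 of 9 higher and 1 lower in WT and 3 higher and 2 lower in the mutant. Their mean level ranged from 7.49 to 7.55 in WT basal arrays and from 7.46 to 7.66 after learning, and from 7.46 to 7.66 and 7.50 to 7.69 in the mutant, and their part in the values above was not tested.

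The core subunits of other tissues, Psma8 of testis and Psmb11 of thymus, read 5.00 to 5.58 and 5.20 to 5.80 over all arrays, below the array medians. Psma8 was called higher in the mutant (0.21, adjusted p = 0.0327), a call lost in 5 of 12 runs without 1 array (mutant basal 1, 4 or 6 and mutant learning 4 or 5, up to 0.0935). It was also lost with only the compared groups in the fit and under a second quantile normalization (up to 0.116). Psmb11 differed by 0.07 in each genotype and was not called.

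The ATPases of the cap, which unfold the substrate, were split. Of 6 genes, 2 rose and 1 fell in WT, and 3 rose and 1 fell in the mutant. Psmc6 read 9.82 to 10.05 (median 10.01) and 10.15 to 10.48 (median 10.39) in WT, and 9.81 to 10.03 (median 9.94) and 10.17 to 10.51 (median 10.39) in the mutant. Its rise was 0.38 (adjusted p = 2.04e-06) and 0.43 (adjusted p = 3.66e-07). Psmc2 read 9.21 to 9.40 (median 9.33) and 9.42 to 9.58 (median 9.52) in WT, and 9.19 to 9.35 (median 9.28) and 9.49 to 9.68 (median 9.57) in the mutant, a rise of 0.20 and 0.30. The states of both genes lay apart.

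Psmc5 went the other way and read 10.15 to 10.25 (median 10.20) in WT basal arrays and 9.83 to 10.05 (median 9.95) after learning. Mutant arrays read 10.17 to 10.32 (median 10.26) and 9.89 to 9.97 (median 9.96). Every learning array lay below every basal array, at differences of -0.27 in WT (0.831-fold, adjusted p = 1.04e-06) and -0.31 in the mutant (0.807-fold, adjusted p = 8.49e-08).

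Psmc1 was called in the mutant alone (0.11, adjusted p = 0.039; 0.04 in WT), and with the mean of its 2 probes the adjusted p was 0.393. That call also ended in 7 of 12 runs without 1 array (mutant basal 1, 2 or 6 and mutant learning 3, 4, 5 or 6, up to 0.131). Other settings that ended it were only the compared groups in the fit, a second quantile normalization, array weights and eBayes without the mean-variance trend. Psmc3 and Psmc4 differed by -0.06 and -0.08 in WT and by -0.07 and -0.03 in the mutant and were not called.

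The scaffolds at the base of the cap went in different directions by small amounts. Psmd2 read 11.02 to 11.18 (median 11.03) and 10.91 to 11.01 (median 10.95) in WT, and 11.01 to 11.09 (median 11.04) and 10.80 to 10.98 (median 10.92) in the mutant. It fell by 0.11 (adjusted p = 0.00921) and 0.14 (adjusted p = 0.00126), with no overlap. The WT call ended without WT basal arrays 4, 5 and 6 (adjusted p = 0.132). Psmd1 rose by 0.11 in WT (adjusted p = 0.0146), and its mutant difference was 0.08 (adjusted p = 0.067). Its call ended without WT learning array 5 (0.0524) and under a second quantile normalization (0.153). Psmd4, a receptor for ubiquitin chains, rose by 0.14 (adjusted p = 0.0119) and 0.15 (adjusted p = 0.00614); the WT call ended under a second quantile normalization and without WT basal arrays 4, 5 and 6 (up to 0.0718). A second probe of Psmd2 differed by -0.06 (adjusted p = 0.0532) and -0.08 (adjusted p = 0.0156).

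The lid of the cap, which removes ubiquitin chains, held 3 of the 4 largest rises in each genotype. Psmd14, the enzyme that cuts the chain off the substrate, read 9.94 to 10.10 (median 10.06) in WT basal arrays and 10.69 to 10.84 (median 10.75) after learning. Mutant arrays read 9.68 to 10.04 (median 9.94) and 10.67 to 10.81 (median 10.72). The gap between states was wider than the spread within any group, at 0.72 in WT (SE 0.0441, 1.64-fold, adjusted p = 1.11e-13) and 0.81 in the mutant (1.76-fold, adjusted p = 6.72e-15).

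Psmd8 read 9.26 to 9.69 (median 9.61) and 10.04 to 10.42 (median 10.23) in WT, and 9.43 to 9.70 (median 9.61) and 10.08 to 10.36 (median 10.27) in the mutant. Its states lay apart, by 0.70 (1.62-fold, adjusted p = 1.07e-09) and 0.66 (1.58-fold, adjusted p = 2.85e-09). Psmd6 rose by 0.61 (1.52-fold, adjusted p = 9.95e-05) and 0.88 (1.84-fold, adjusted p = 3.96e-07), but its learning arrays spread widely. They read 9.68, 9.73, 9.92, 10.22, 10.25 and 10.28 in WT and 9.63, 10.21, 10.30, 10.30, 10.56 and 10.67 in the mutant, against 9.20 to 9.59 and 9.31 to 9.53 at basal. Its SE of 0.119 was the widest among the 49 genes, and its states did not overlap in either genotype.

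Psmd12 read 9.86 to 9.95 (median 9.93) and 10.05 to 10.31 (median 10.19) in WT, and 9.77 to 10.05 (median 9.93) and 10.07 to 10.33 (median 10.21) in the mutant. The groups did not overlap, at a rise of 0.27 and 0.29. Psmd11, which braces the lid against the core, read 9.12 to 9.39 (median 9.28) in WT basal arrays and 9.32 to 9.50 (median 9.39) after learning. It read 9.19 to 9.36 (median 9.28) and 9.38 to 9.56 (median 9.40) in the mutant. The rise was 0.13 (adjusted p = 0.0168) in WT, with overlap, and 0.15 (adjusted p = 0.00963) in the mutant, without. Its WT call ended without WT basal array 6 or WT learning array 2 (up to 0.0571) and without WT basal arrays 4, 5 and 6 (0.189). Psmd3 fell in the mutant (by 0.14, adjusted p = 0.0278), with a difference of -0.08 in WT, and lost its call in 5 of 12 runs without 1 array (mutant basal 1, 3 or 6 and mutant learning 3 or 4, up to 0.0624). Psmd7 and Psmd13 lay between -0.01 and 0.02 in both genotypes.

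All 3 chaperones that assemble the base of the cap rose in both genotypes. Psmd10, also known as gankyrin, read 8.19 to 8.53 (median 8.37) in WT basal arrays and 8.87 to 9.27 (median 9.16) after learning. Mutant arrays read 8.25 to 8.47 (median 8.38) and 8.93 to 9.18 (median 9.11). The states lay apart in both genotypes, by 0.77 in WT (1.71-fold, adjusted p = 5.49e-11) and 0.73 in the mutant (1.65-fold, adjusted p = 1.75e-10).

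Psmd5 read 9.11 to 9.32 (median 9.27) and 9.58 to 9.92 (median 9.77) in WT, and 9.14 to 9.38 (median 9.28) and 9.65 to 9.92 (median 9.79) in the mutant. It rose by 0.51 (adjusted p = 4.82e-09) and 0.53 (adjusted p = 2.56e-09) without overlap. Psmd9 rose by 0.23 (adjusted p = 0.000954) and 0.32 (adjusted p = 1.68e-05), and only its mutant groups lay apart.

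Among the chaperones of the core, Psmg2, which pairs with the product of Psmg1 to build the alpha ring, rose by 0.33 and 0.36 (adjusted p = 0.00028 and 8.78e-05), while Psmg1 itself lay at 0.00 and 0.04 and was not called. Psmg3 was called in the mutant alone (0.19, adjusted p = 0.0476; 0.02 in WT), kept the call in 4 of 12 runs without 1 array (up to 0.133) and lost it with the replicate block, with array weights, with only the compared groups in the fit and without WT basal arrays 4, 5 and 6 (up to 0.0675). Psmg4 differed by 0.15 and 0.18 and was not called.

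**Figure D4:**
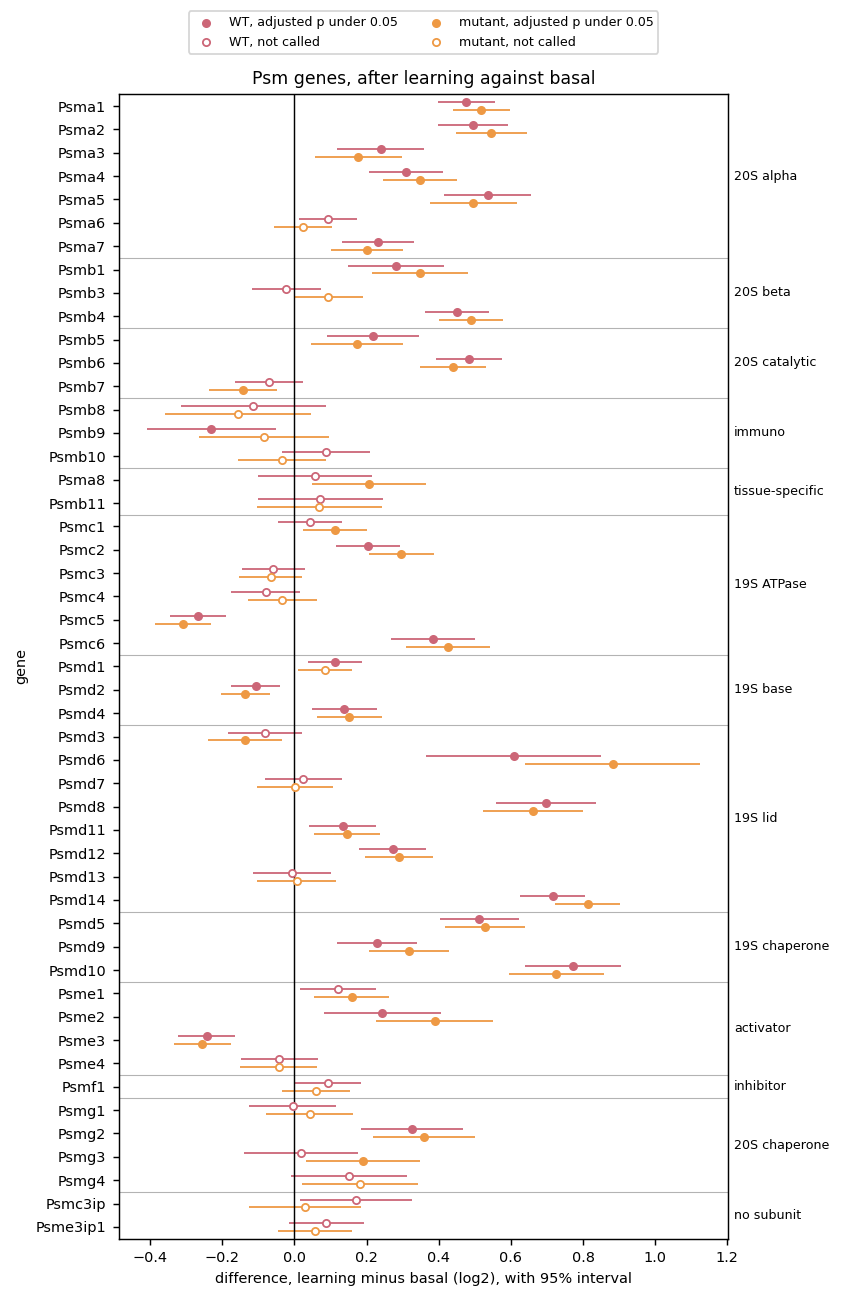
Difference learning minus basal (log2) with its 95% interval for each Psm gene, in WT and in the mutant; filled points have an adjusted p under 0.05. The points run from -0.27 (Psmc5) to 0.77 (Psmd10) in WT and from -0.31 (Psmc5) to 0.88 (Psmd6) in the mutant, and the intervals of the genotypes overlap for each gene.

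The caps that replace or accompany the ATPase cap differed among themselves. Psme1 and Psme2 build a ring activator that interferon induces and Psme3 a related ring of the nucleus. Psme2 read 7.48 to 7.85 (median 7.64) and 7.59 to 8.17 (median 7.91) in WT, and 7.42 to 7.70 (median 7.60) and 7.71 to 8.12 (median 8.00) in the mutant. WT groups overlapped and mutant groups did not, at a rise of 0.24 (adjusted p = 0.0134) and 0.39 (adjusted p = 0.00018). A probe shared with its copy Psme2b, not used for the gene, was at 0.26 and 0.12 without a call. The WT call of Psme2 ended without WT learning array 5 (0.0508) and without WT basal arrays 4, 5 and 6 (0.0714). Psme1 rose in the mutant (0.16, adjusted p = 0.0132) and differed by 0.12 in WT (adjusted p = 0.0568).

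Psme3 fell in both genotypes. It read 9.60 to 9.71 (median 9.68) in WT basal arrays and 9.35 to 9.48 (median 9.43) after learning, and in the mutant 9.52 to 9.73 (median 9.70) and 9.35 to 9.44 (median 9.40). All learning arrays lay below all basal arrays, at -0.24 in WT (adjusted p = 5.59e-06) and -0.26 in the mutant (adjusted p = 2.71e-06). Psme4, a large single-chain activator, differed by -0.04 in each genotype, and Psmf1, an inhibitor of the core in biochemical assays, by 0.09 and 0.06, with no call. Neither name match outside the proteasome was called: Psmc3ip differed by 0.17 in WT (adjusted p = 0.0699) and 0.03 in the mutant, and Psme3ip1 by 0.09 and 0.06.

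Proteasome partners outside the name pattern were listed too, and 15 of 18 were measured. In each genotype 9 of the 15 rose and 2 fell, beside 25.1% of all genes higher and 18.2% lower in WT and 22.6% and 18.7% in the mutant. Pomp, the chaperone that closes assembly of the core, rose by 0.91 in WT (adjusted p = 1.15e-16) and 0.85 in the mutant (adjusted p = 3.46e-16). Ubqln1, a shuttle for ubiquitinated proteins, rose by 0.31 and 0.34, and Uchl5, a deubiquitinase of the cap, by 0.53 and 0.46. Txnl1, a redox protein bound to the cap, rose by 0.41 and 0.42. The shuttles Ubqln4 (-0.33 and -0.39) and Rad23b (-0.20 and -0.16) fell.

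Of the genes of ubiquitin, its activation and conjugation and the p97 machinery, 13 of 18 listed were measured. In each genotype 3 rose and 7 fell, to be read against the same shares of all genes. Uba6, an enzyme that activates ubiquitin, rose by 0.67 (WT) and 0.60 (mutant), and the conjugating enzymes Ube2d3 (0.21 and 0.25) and Ube2k (0.20 and 0.14) rose too. Usp5, which takes apart free ubiquitin chains, fell by 0.53 and 0.49, and the conjugating enzyme Ube2n fell by 0.60 and 0.63. Ube2d1 fell by 0.32 and 0.29, and Nploc4, a cofactor of the p97 unfoldase, by 0.23 in each. Of 11 measured ubiquitin ligase genes, 2 rose and 4 fell in each genotype, beside 43.3% (WT) and 41.3% (mutant) of all genes called in either direction. Those that rose were Mdm2 (0.32 and 0.29) and Itch (0.26 and 0.20). Fbxo2 fell by 0.50 and 0.40 and Fbxo32, a FoxO target in muscle, by 0.37 and 0.44, while Nedd4 was called in WT (-0.18; -0.09 in the mutant) and Stub1 in the mutant (-0.12; -0.09 in WT).

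Of the 11 measured factors known to drive proteasome genes or to process these factors, 5 rose and 4 fell in WT and 5 rose and 3 fell in the mutant, where 43.3% and 41.3% of all genes were called in either direction. Nfe2l1, which raises subunit genes when the proteasome is inhibited in cultured cells, fell by 0.24 in WT (adjusted p = 5.59e-05) and 0.30 in the mutant (adjusted p = 2.41e-06). Its relative Nfe2l2 rose by 0.51 and 0.46, Nfyb, a subunit of NF-Y, by 0.48 and 0.57, Ngly1, which processes the Nfe2l1 protein, by 0.24 and 0.22, and Nfya, another NF-Y subunit, by 0.17 and 0.28. Stat3 fell by 0.24 and 0.18 and Foxo1 by 0.24 and 0.42.

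Marker lists of cell types were read beside these results, against 25.1% of all genes higher and 18.2% lower in WT and 22.6% and 18.7% in the mutant. Of 9 hippocampal neuron markers 6 fell in each genotype and 1 rose in WT (0 in the mutant), and their mean level was 9.51 to 9.68 in WT basal and 9.31 to 9.46 in WT learning arrays, and 9.47 to 9.58 and 9.27 to 9.32 in the mutant. Of 10 choroid plexus markers 1 fell in WT and 4 in the mutant, with mean levels of 6.13 to 7.15 and 6.26 to 6.49 in WT and 6.69 to 7.18 and 6.19 to 7.05 in the mutant. Of 7 endothelial markers 2 fell in WT and 3 in the mutant, and 0 rose. Astrocyte markers rose in 2 and fell in 4 of 8 in WT (1 and 5 in the mutant), interneuron markers in 4 and 4 of 10 (3 and 5), oligodendrocyte markers in 2 and 2 of 7 (3 and 2) and blood cell markers in 0 and 0 of 7 (1 and 0). The part of these lists in the proteasome values was not tested. Without WT basal arrays 4, 5 and 6, which were low in the choroid plexus gene Ttr, 21 Psm genes rose and 3 fell in WT. The shares of all genes called in that smaller fit are not given here, so these counts cannot be read against the shares above.

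Loss of FoxO6 went with no called difference in any of the 49 genes, in either state. At basal limma called 0 of 49 genes higher (0.0451% of all genes) and 0 lower (0.0552%), and 1 had an unadjusted p under 0.05 (2.04%, against 4.5% of all genes). After learning 0 were called higher (0.015% of all genes) and 0 lower (0.0602%). An unadjusted p under 0.05 was found for 3 (6.12%, against 7.33%). Averaged over both states 0 were called higher (0.176%) and 0 lower (0.216%), and 4 passed without adjustment (8.16%, against 8.86%). The median difference, mutant minus WT, was 0.00 at basal and 0.01 after learning, where that of all genes was 0.01 and 0.00. Groups without overlap were found for 0 of the 49 genes in either direction and state (0.246% of all genes higher and 0.186% lower at basal, 0.191% and 0.181% after learning).

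Some cell type markers differed between genotypes beside these values. Of 9 hippocampal neuron markers 3 were called lower in the mutant averaged over states: Fibcd1 (-0.34, adjusted p = 5.86e-06), C1ql2 (-0.29, adjusted p = 0.0227) and Prox1 (-0.20, adjusted p = 0.0355). Fibcd1 was also called lower in each state, by itself among the markers. All 10 choroid plexus markers had positive differences, mutant minus WT, of 0.11 to 0.99 at basal (median 0.21) and 0.06 to 0.53 after learning (median 0.16), with 0 called. Interneuron markers were positive in 9 of 10 at basal and 8 of 10 after learning, with 0 called. None of the astrocyte, oligodendrocyte, microglia, endothelial or blood cell markers was called. The part of these markers in the genotype values of the Psm genes was not tested.

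The intervals bound how large a genotype difference could have been missed. At basal the 95% interval of 46 of 49 genes lay within 0.25 of 0 on the log2 scale, and that of all 49 within 0.5. After learning 43 lay within 0.25 and 48 within 0.5, the exception being Psmd6 (0.02 to 0.51). For Psmb6 the difference was 0.05 at basal (-0.04 to 0.14) and 0.00 after learning (-0.09 to 0.09). For Psmb5 it was 0.04 (-0.08 to 0.17) and 0.00 (-0.13 to 0.13), and for Psmb7 0.03 (-0.06 to 0.13) and -0.04 (-0.13 to 0.05). Psmd11, the subunit tied to FOXO4 in human cells, differed by 0.01 (-0.08 to 0.10) and 0.02 (-0.07 to 0.12).

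**Figure D5:**
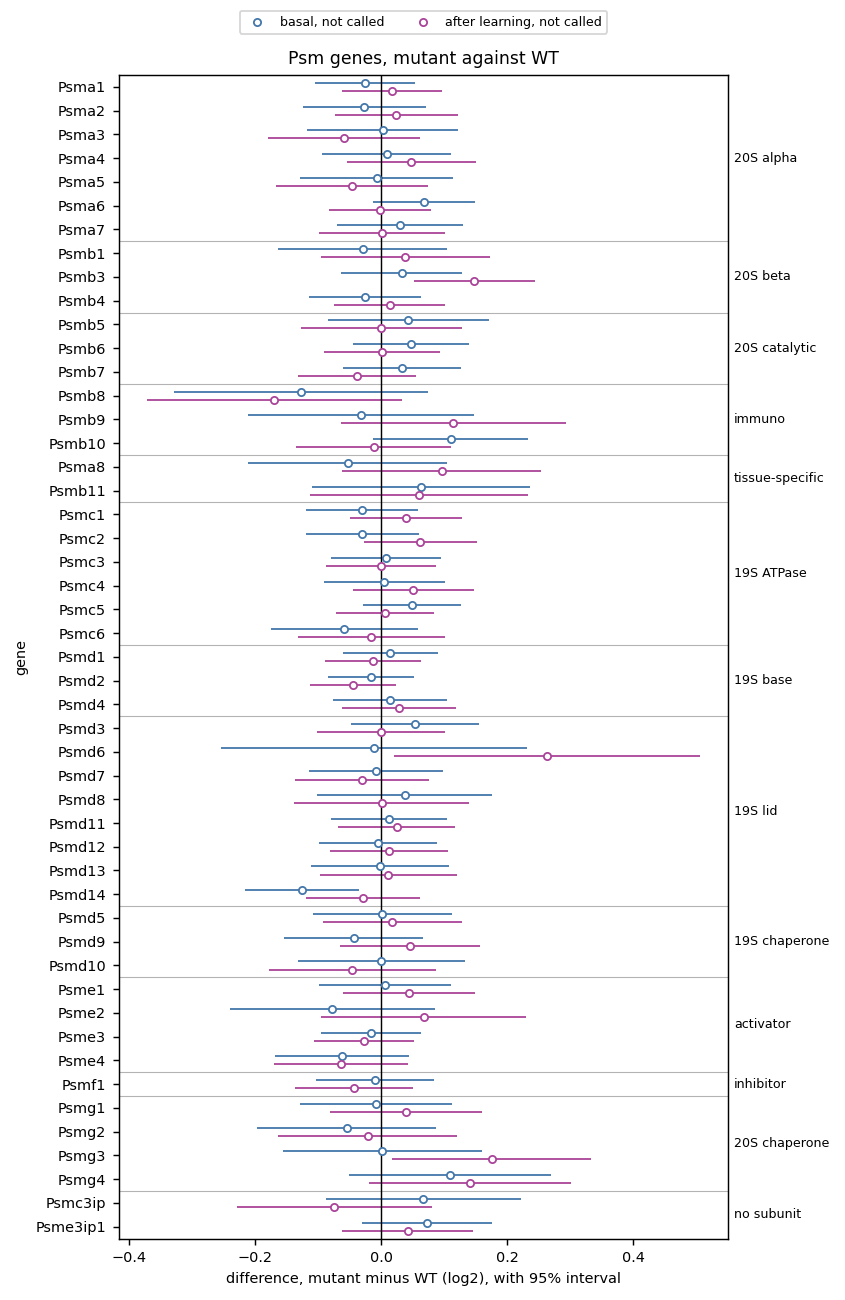
Difference mutant minus WT (log2) with its 95% interval for each Psm gene, at basal and after learning; open points have an adjusted p of 0.05 or more, which holds for all. Most intervals hold 0, and the widest belong to Psmd6, Psmb8, Psmb9 and Psmb11.

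The smallest p values between genotypes were as follows, as values without a call. At basal they belonged to Psmd14 (-0.13, adjusted p = 0.802), Psmb10 (0.11), Psma6 (0.07), Psme3ip1 (0.07) and Psmg4 (0.11), with an adjusted p near 1 for the last 4. After learning they belonged to Psmb3 (0.15, adjusted p = 0.40), Psmg3 (0.17), Psmd6 (0.26), Psmg4 (0.14) and Psmb8 (-0.17), with adjusted p up to 0.739. Averaged over states they belonged to Psmb3 (0.09, adjusted p = 0.383), Psmd14 (-0.08), Psmg4 (0.13), Psmb8 (-0.15) and Psme4 (-0.06), up to 0.661. The second probe of Psmb3 differed by -0.02 between genotypes after learning and by 0.01 on average. Psmb8 differed by -0.13 (-0.33 to 0.07) at basal, and Psmb9 by -0.03 (-0.21 to 0.15) at basal and 0.11 (-0.06 to 0.29) after learning.

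The learning difference of these genes was not shown to depend on genotype. For the interaction, which is the learning difference in the mutant minus that in WT, limma called 0 of 49 genes in either direction (0% of all genes). At an unadjusted p under 0.05 it gave 0 of 49, against 2.56% of all genes. The smallest p values belonged to Psmb3 (0.12), Psmd6 (0.27, 95% interval -0.07 to 0.62), Psmg3 (0.17), Psmd14 (0.10) and Psmc2 (0.09), all with an adjusted p near 1. The interval lay within 0.25 of 0 for 38 of 49 genes and within 0.5 for 48. The genotype and learning comparisons share arrays, so they are not independent of each other.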

How the data were processed

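The deposited table holds log2 values of Affymetrix whole-transcript arrays that the authors made with RMA, per the submitters' processing notes. RMA corrects the background, equalises the quantiles of the arrays and summarises the probes. No version or chip definition is given in the sources used here. Values were not transformed further. Of 35511 probes, 21789 carry 1 gene symbol in the platform annotation. The probe with the highest mean over the 24 arrays stood for a gene, which gave 19938 genes with no filter on dim ones.

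One limma 3.58.1 model (R 4.3.3) fitted 4 group means to all 24 arrays. eBayes used a mean-variance trend (20 residual and 29 total degrees of freedom). P values are two-sided and Benjamini-Hochberg adjusted over all genes of each of the 6 comparisons. Group values are the lowest, median and highest array. Every member was described; per role and direction, values are given for up to 3 called ones of smallest p, and for the catalytic subunits and Psmd11, and per pathway list up to 3 called genes per direction. Members and lists were chosen with earlier results of these data known, so list counts have no test of their own. The fit was also run on simulated data with independent noise and few shifted genes. The learning comparisons changed far more genes, so that run does not test the calls given here.

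Alternatives were other scalings, probes, filters, models, a stricter threshold and leaving out arrays. For arrays that share a replicate number, the correlations of their deviations from the group means ran from -0.296 to 0.453, the highest for number 2. Arrays with different numbers were not compared in this way, so the check does not settle whether the numbers pair arrays. The labels do not call them pairs, and they were not taken as such.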

Additional observations from a re-analysis of the deposited data

Results flagged for a closer look

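Of 196 groups of 6 arrays (49 genes in 4 groups), 10 held 1 array far from the other 5 by Dixon's test at its 95% critical value, where chance gives about 9.8. WT basal array 6 was the lowest for Psma1 (9.35), Psma4 (9.69) and Psmb1 (8.74) and the highest for Psmd2 (11.2). Mutant basal array 6 was the lowest for Psma3 (9.49) and Psmd14 (9.68). The remaining lowest arrays were WT basal array 1 for Psma3 (9.60), WT learning array 5 for Psmb1 (9.21), WT learning array 1 for Psmd4 (8.91) and mutant learning array 3 for Psme2 (7.71). Without mutant basal array 6 the rise of Psma3 in the mutant had an adjusted p of 0.062.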

How the results depend on the processing

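With 1 array left out, 23 to 26 genes rose and 3 to 4 fell in WT after learning, 23 to 28 rose and 4 to 5 fell in the mutant, and 0 were called between genotypes or for the interaction. Of the called genes, 24 of 28 in WT and 26 of 32 in the mutant kept the call in every such run, and 22 and 28 under every other alternative bar the stricter threshold. At an adjusted p under 0.01, 3 fell in the mutant, where 5 fell at 0.05. This was the only learning count that the stricter threshold changed by more than 1.5 times. The shares of all genes at that threshold are not given here. With the replicate block 26 rose and 4 fell in WT and 27 rose and 5 fell in the mutant, 0 were called between genotypes or for the interaction, and the block ended the mutant call of Psmg3; these numbers were not shown to pair the arrays. Scalings, array weights, a filter on dim genes and other probe choices kept every count within 1.5 times of that reported, with 0 reversed genes. The number of arrays and unknown signal over background limit what can be seen for Psma8, Psmb8 and Psmb11.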
